A study of Rattus norvegicus with 107 samples.

Results

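The 6 genes described here were measured in the hearts of rats whose dams received combination antiretroviral therapy (cART) around birth: Fgf7, Adamtsl2, Pik3c2g, Atp6ap1l, Pvt1 and LOC108352946. These 6 genes were picked from the measured values, because the high dose changed each of them in the same direction at postnatal day 21 (PND21) and at 12 months. They are 6 of 22652 genes listed at PND21, 21860 in the 4-month table and 20792 in the 12-month table, and each passed the minimum mean count there, as did 15073, 15264 and 14191 genes in all. Their difference between the high dose and control at PND21 and 12 months is therefore the base of the choice and is given as a description, with no test. The choice rested on a test over the libraries of both sexes, so the spread between them entered it. The 4-month hearts and the comparisons between the sexes took no part in it. The low-dose differences at PND21 and 12 months share their controls with the choice, which pulls them towards the chosen sign. They are therefore a description too, and no independent evidence of a graded dose effect.

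The animals were Sprague Dawley F1 offspring of dams gavaged daily from gestational day 6 with vehicle, a low dose or a high dose of abacavir, dolutegravir and lamivudine. The high dose held 300 mg/kg abacavir, 25 mg/kg dolutegravir and 150 mg/kg lamivudine, and the low dose held 150 mg/kg abacavir and 75 mg/kg lamivudine with dolutegravir. Pups were dosed through their dams until weaning at PND21, so the hearts at 4 and 12 months were taken after dosing had ended. Each combination of age, sex and dose held 6 libraries, except the 4-month female controls with 5, which gives 107 libraries in all. The dose was read from the sample titles, since the treatment label reads cART in every sample, controls included. The labels do not name litters, nor do they say that each library is a separate animal, so a p-value here measures the spread between libraries.

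The deposited values are read counts divided by a size factor for each library (normalized counts), with 1 table per age, and ages were therefore never tested against each other. Depth ran from 16.8 to 101.9 M reads (M, 1e6) on genes per library, and the mtDNA genes took between 23.7% and 47.3% of them. The hearts carried Myl2, the ventricular myosin light chain, at medians of 395732, 385276 and 252338 normalized counts from the youngest to the oldest age, and never below 198335. A pair of high-dose males stood apart in several of the 6 genes: replicate 6 at 12 months, with 499 normalized counts of LOC108352946 against at most 130 in the other 35 libraries, and replicate 1 at 4 months, with 134 against at most 47.0 in the other 34. Both also held the highest Nppa of their age (243158 and 89132 normalized counts) and the highest summed fibroblast markers (100395 against at most 63177 in the other 12-month libraries, and 137489 against at most 124386 at 4 months). Values without them are given beside the results they move most. At the interim necropsy, the study's supplement describes freezing the left side of each heart and fixing the right side. In such mixed heart tissue, fewer cells of a type and less RNA per cell cannot be told apart.

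The 6 genes belong to no single pathway. Fgf7 encodes keratinocyte growth factor, a secreted ligand that mesenchymal cells release and that acts on a splice form of Fgfr2 found mostly on epithelia. Adamtsl2 encodes a secreted ADAMTS-like glycoprotein without protease activity, which binds fibrillin microfibrils and latent TGF-beta binding proteins in the extracellular matrix. Pik3c2g is a class II phosphoinositide 3-kinase, one of the lipid kinases that act on endosomal membranes, and is best known from liver. Atp6ap1l is named for its similarity to Atp6ap1, an accessory subunit of the proton pump (V-ATPase) that acidifies intracellular compartments. Pvt1 is a long noncoding RNA next to the proto-oncogene Myc, and LOC108352946 is an uncharacterized long noncoding RNA.

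RefSeq promoter windows of the GRCr8 assembly, from 250 bases before to 50 bases after the annotated start, were held for 5 of the 6 genes, and Pvt1 had none in the table. The windows of the 3 genes whose levels followed each other most closely between libraries are shown because those genes carry the correlations described further on. Capitals mark a match to a searched motif on either strand: TATAAA (the TATA box) and GGGCGG (a GC box) in Adamtsl2, and CCAAT, which reads as its reverse complement here, in Atp6ap1l.
Adamtsl2, chr3:30802450-30802749, plus strand: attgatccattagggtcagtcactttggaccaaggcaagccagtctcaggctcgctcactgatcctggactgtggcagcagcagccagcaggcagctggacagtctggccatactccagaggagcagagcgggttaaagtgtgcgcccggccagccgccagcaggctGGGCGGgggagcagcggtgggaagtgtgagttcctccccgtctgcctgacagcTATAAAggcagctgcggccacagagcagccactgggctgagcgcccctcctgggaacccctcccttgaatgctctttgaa
Atp6ap1l, chr2:23800171-23800470, minus strand: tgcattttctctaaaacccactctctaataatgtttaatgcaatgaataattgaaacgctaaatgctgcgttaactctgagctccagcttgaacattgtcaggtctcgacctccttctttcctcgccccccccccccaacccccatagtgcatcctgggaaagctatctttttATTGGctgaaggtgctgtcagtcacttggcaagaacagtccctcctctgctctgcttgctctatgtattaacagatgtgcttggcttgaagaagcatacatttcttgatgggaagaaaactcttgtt
LOC108352946, chr15:58523289-58523588, minus strand: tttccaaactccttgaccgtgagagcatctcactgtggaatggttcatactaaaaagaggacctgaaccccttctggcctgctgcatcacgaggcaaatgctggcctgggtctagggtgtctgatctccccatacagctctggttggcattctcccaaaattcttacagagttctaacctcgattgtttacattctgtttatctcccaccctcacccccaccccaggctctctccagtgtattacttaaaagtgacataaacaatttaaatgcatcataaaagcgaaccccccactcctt
TATAAA began 30 bases before the start of Adamtsl2, and GGGCGG began 83 bases before it. In Atp6ap1l the CCAAT match lay 77 bases before the start. LOC108352946 had no match to the 4 motifs searched, the fourth being CACGTG (the E-box that Myc binds), and neither had Pik3c2g. The window of Fgf7 held TATAAA 235 bases and CCAAT 64 bases before its start, and CACGTG was found in none of the 5. Among 33469 promoters of the same length, 14.2% held TATAAA, 37.5% CCAAT, 33.1% GGGCGG and 6.42% CACGTG. No motif was common to the 5 windows.

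**Figure D1:**
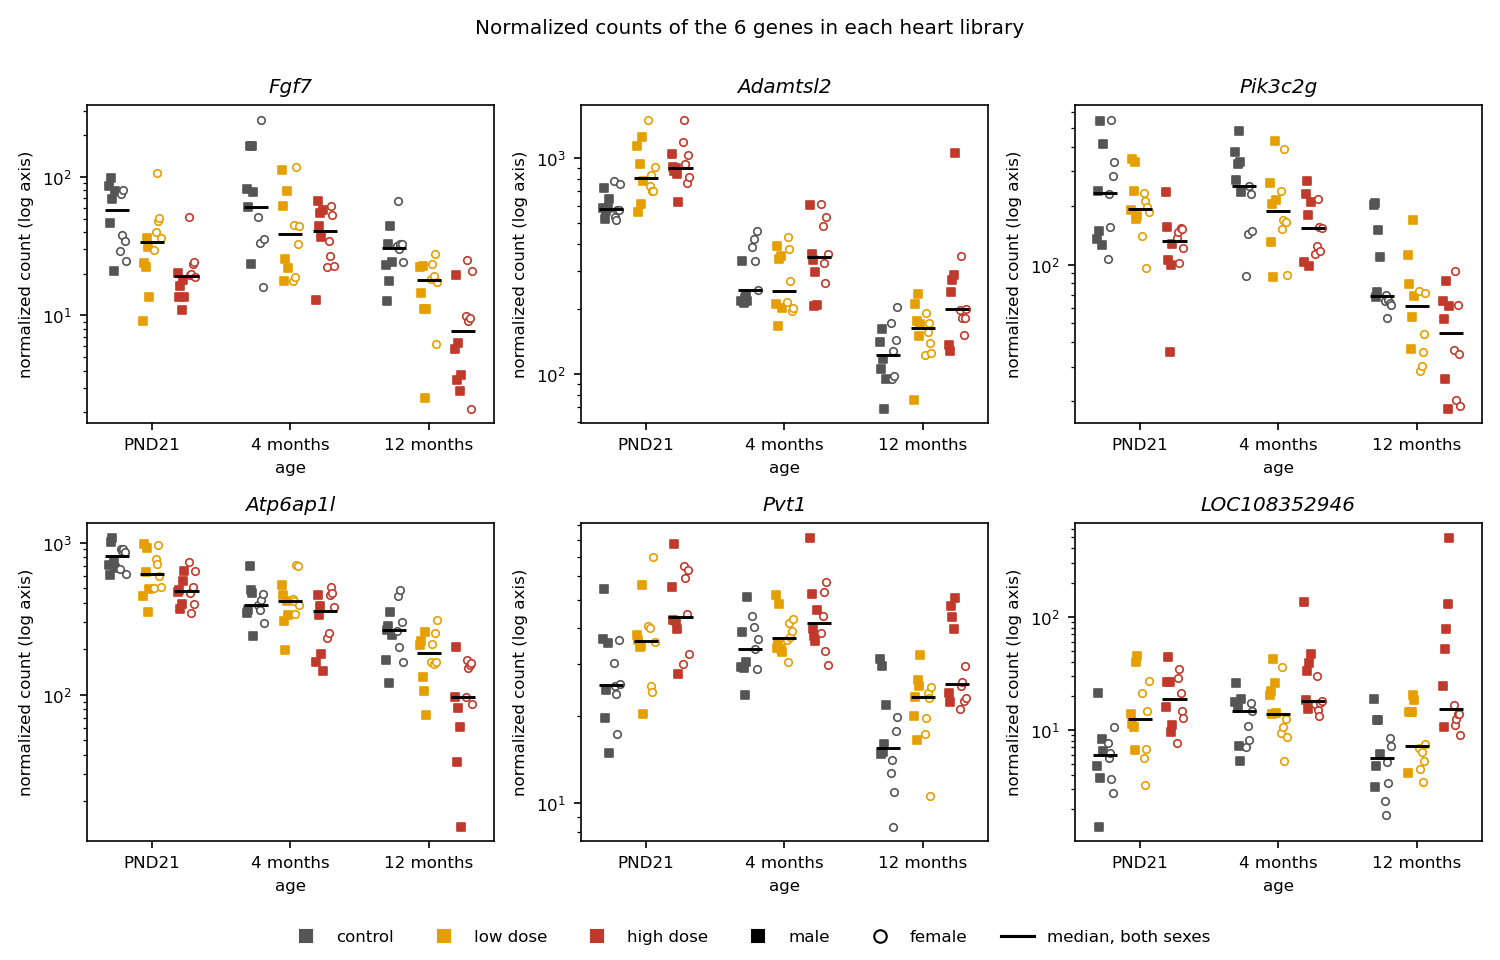
Normalized count of each gene (log axis) in each heart library, by age and, from left to right within an age, control, low and high dose. Filled squares are males, open circles are females and bars are medians of both sexes. Fgf7, Pik3c2g and Atp6ap1l lie lower and Adamtsl2, Pvt1 and LOC108352946 lie higher on the high dose at PND21 and 12 months, which is how the 6 genes were chosen, and 1 high-dose male at 12 months stands apart at 499 for LOC108352946.

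The secreted factors moved in opposite directions. Fgf7 was the lower of the pair on cART. At PND21 its normalized count ran from 20.8 to 98.03 in the 12 controls, with a median of 57.9, and from 11.02 to 51.1 on the high dose, with a median of 19.2. Of the 12 high-dose libraries, 11 lay below every control of the same sex, and the 6 males did not overlap their controls at all. The exception was female replicate 1, at 51.1. The choice favours such separation in all 6 genes, and the share of all genes so separated was not computed. At 12 months controls ran from 12.7 to 66.9, with a median of 30.9, and high-dose libraries from 2.12 to 25.3, with a median of 7.68. All 12 high-dose libraries then lay below the median of the controls of their sex, and 10 lay below every one of them. The log2 difference from control was -1.34 (SE 0.25) at PND21 and -1.79 (SE 0.32) at 12 months. These values rest on few reads, between 2 and 32 per high-dose library at 12 months, where a single read is a large step.

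On the low dose Fgf7 had a median of 33.7 at PND21, between 9.13 and 106, and of 17.96 at 12 months, between 2.52 and 27.97. The log2 difference from the same controls was -0.67 (SE 0.25) at PND21 and -0.96 (SE 0.32) at 12 months, in each case between 0 and the high-dose value. At 12 months all 12 low-dose libraries were below the median control of their sex. At PND21 the sexes parted on the low dose: males differed from control by -1.49 (SE 0.35) and females by 0.15 (SE 0.35) on the log2 scale, a difference between the sexes that was not tested.

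Adamtsl2, the matrix protein, was higher on cART. Its normalized count at PND21 ran from 516 to 779 in controls, with a median of 579, and from 628 to 1503 on the high dose, with a median of 900.0. Only 2 of the 12 high-dose libraries overlapped the controls of their sex. At 12 months the medians were 123 in controls and 199 on the high dose, and the high-dose range of 128 to 1054 covered most of the control range of 68.9 to 205. All 12 high-dose libraries still lay above the median control of their sex, 5 of them above every control. The log2 difference was 0.61 (SE 0.13) at PND21 and 0.92 (SE 0.23) at 12 months. Without the 12-month male that stood apart, at 1054, the 12-month difference was 0.72.

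The low dose brought Adamtsl2 to a median of 806 at PND21, which was 0.49 (SE 0.13) above control on the log2 scale, with 11 of 12 libraries above the median control of their sex. At 12 months the low-dose median was 163 and the log2 difference was 0.34 (SE 0.23), with 9 of 12 libraries above that median. The low-dose and high-dose values at PND21 thus lay close together, while at 12 months the low-dose value was the smaller.

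Pik3c2g, the lipid kinase, had the widest overlap of the 3 genes that were lower on the high dose. At PND21 controls ran from 106 to 548, with a median of 233, and high-dose libraries from 35.8 to 235, with a median of 132. Although 11 of the 12 high-dose libraries were below the median control of their sex, only 4 were below every control. At 12 months controls had a median of 69.1 (53.1 to 206) and high-dose libraries a median of 44.6 (18.4 to 92.5). Here 9 of the 12 lay below every control, and 1 female, at 92.5, lay above every female control, whose 6 values were confined to between 53.1 and 69.5. The log2 difference was -0.94 (SE 0.26) at PND21 and -1.07 (SE 0.27) at 12 months. On the low dose it was -0.23 (SE 0.26) at PND21, with a median of 193, and -0.58 (SE 0.27) at 12 months, with a median of 61.6.

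Atp6ap1l, named for the V-ATPase, had the cleaner separation. Its normalized count at PND21 ran from 615 to 1078 in controls, with a median of 815, and from 342 to 748 on the high dose, with a median of 480. At 12 months the ranges were 119 to 485 in controls, with a median of 265, and 13.5 to 206 on the high dose, with a median of 96.7. At both ages all 12 high-dose libraries were below the median control of their sex, and 9 of them at PND21 and 10 at 12 months were below every control. The log2 difference was -0.70 (SE 0.15) at PND21 and -1.49 (SE 0.28) at 12 months, and the latter was -1.28 without the male that stood apart, in which Atp6ap1l had its lowest value of that age. The low-dose difference, from the same controls that chose the gene, was -0.35 (SE 0.15) at PND21, with a median of 622. At 12 months it was -0.53 (SE 0.28), with a median of 188.

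The noncoding RNAs were both higher on the high dose, from low levels. Pvt1 ran from 14.8 to 54.5 normalized counts in PND21 controls, with a median of 25.5, and from 27.8 to 77.6 on the high dose, with a median of 43.6. At 12 months the medians were 15.5 in controls (8.33 to 31.4) and 25.7 on the high dose (21.1 to 50.4). Female high-dose and control libraries did not overlap at 12 months, and 10 of the 12 high-dose libraries were above every control of their sex, against 6 of 12 at PND21. The choice favours such separation, and its share over all genes was not computed. The log2 difference was 0.75 (SE 0.20) at PND21 and 0.80 (SE 0.17) at 12 months. On the low dose it was 0.40 (SE 0.20), with a median of 36.1, and 0.34 (SE 0.17), with a median of 23.1.

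LOC108352946 had the largest high-dose differences of the 6 and the fewest reads. At PND21 controls ran from 1.4 to 21.3 normalized counts, with a median of 5.96, and high-dose libraries from 7.70 to 44.0, with a median of 18.7. At 12 months controls ran from 1.76 to 18.8, with a median of 5.65, and high-dose libraries from 8.96 to 499, with a median of 15.3. All 12 high-dose libraries lay above the median control of their sex at both ages, 8 of them above every control at PND21 and 11 at 12 months, when the females did not overlap. As for Pvt1, the choice favours this, and the share of all genes so separated was not computed. Reads per control library numbered between 1 and 18 at PND21 and between 2 and 13 at 12 months.

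The log2 difference of LOC108352946 was 1.54 (SE 0.36) at PND21 and 2.12 (SE 0.38) at 12 months, and 1.82 at 12 months without the male at 499. That male was not alone. The 6 high-dose males at 12 months held 24.7, 10.7, 52.1, 77.4, 130 and 499 normalized counts, so 4 of the 6 were above 50 while no female of any dose exceeded 16.6. On the low dose the log2 difference was 1.07 (SE 0.36) at PND21, with a median of 12.5, and 0.47 (SE 0.38) at 12 months, with a median of 7.20.

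**Figure D2:**
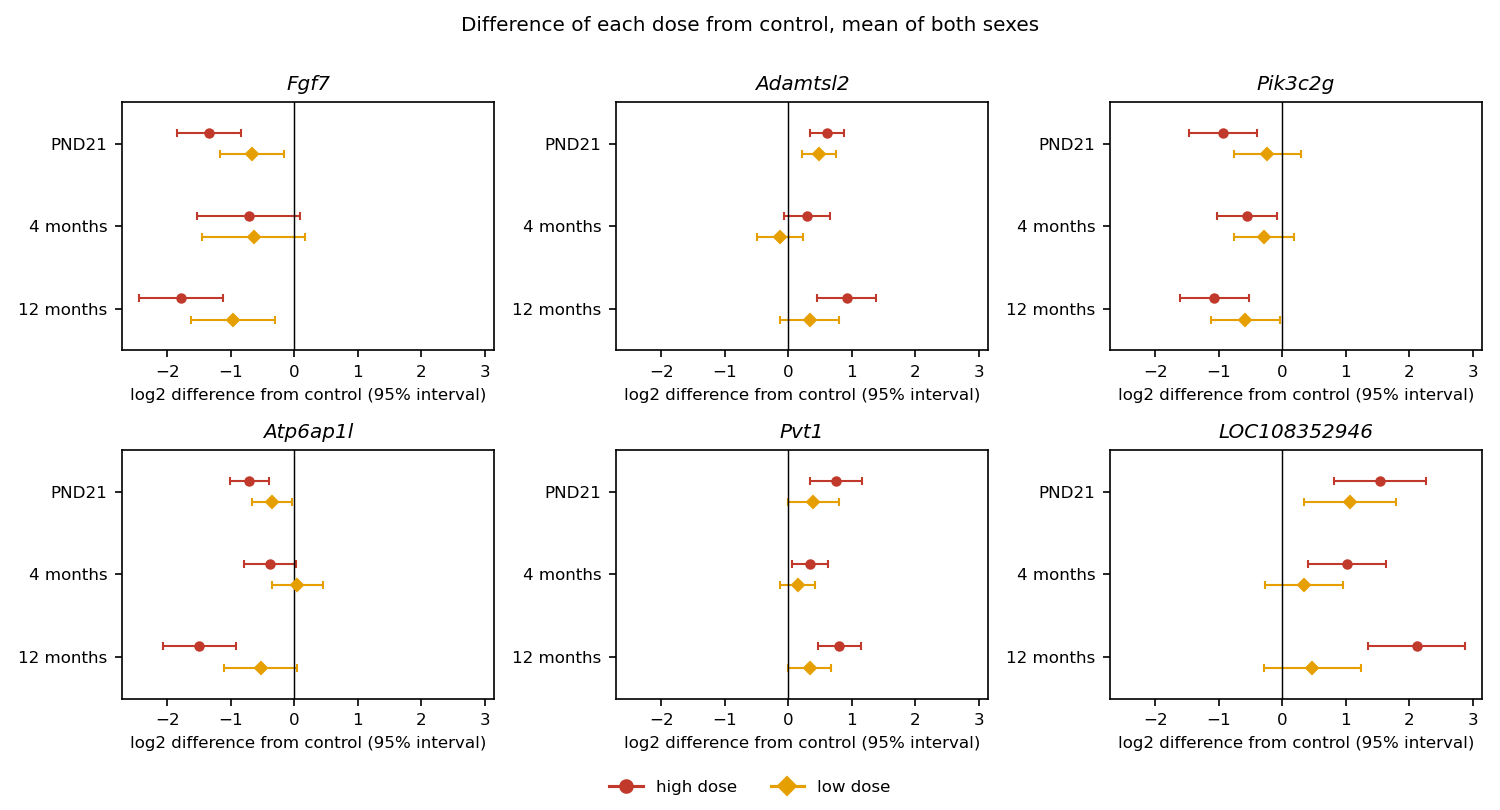
Log2 difference of the high dose (circles) and the low dose (diamonds) from control at each age, averaged over both sexes, with 95% intervals from limma. The high-dose values at PND21 and 12 months chose the genes, and the low-dose values share their controls. At 4 months the 6 high-dose values have the sign they have at the other ages and lie between -0.72 and 1.01.

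In all, 11 of the 13975 genes tested at both ages met the rule of the choice, a change of 1.5-fold or more at an adjusted p below 0.05, in the same direction at PND21 and 12 months. They are the 6 genes and 5 others: Serpinb7, a serpin; Vsnl1, a neuronal calcium sensor; Nppa and Nppb, the natriuretic peptides of the stressed heart; and the homeobox gene Hoxa3. None changed in opposite directions. Over all genes 0.544% were called at PND21 and 0.395% at 12 months. The gene nearest to the limit inside it was Pik3c2g, with a larger adjusted p of 0.0441.

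The hearts at 4 months, which took no part in the choice, were the age at which the high dose could be tested on these genes. None of the 6 passed the test there (limma, with the same limits), and over all genes 0.0721% did. At an unadjusted p under 0.05, 3 of the 6 and 2611 of the 15264 genes passed, and edgeR and DESeq2 on the recovered reads also called none of the 6, with 4 and 5 at an unadjusted p under 0.05. Averaged over both sexes, each of the 6 differences nevertheless had the sign it had at the other ages. Each kept that sign within either sex, but was larger in size in males. Atp6ap1l differed by -0.71 (SE 0.28) in males and -0.06 (SE 0.29) in females on the log2 scale. Pik3c2g differed by -0.95 (SE 0.32) in males and -0.17 (SE 0.34) in females. Of the 6 high-dose females, 3 lay above and 3 below the median female control for Atp6ap1l, Pik3c2g and Adamtsl2. No such difference between the sexes was called (limma interaction). Over both sexes, the closest to a high-dose call was LOC108352946, at a log2 difference of 1.01 (SE 0.30, adjusted p = 0.107). Its normalized count ran from 5.32 to 26.0 in the 11 controls, with a median of 14.7, and from 13.1 to 134 on the high dose, with a median of 18.1. Thus 11 of 12 high-dose libraries were above the median control of their sex, and the difference was 0.83 without the male at 134 (adjusted p = 0.186).

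The protein-coding genes at 4 months differed less from control. Fgf7 had medians of 60.4 in controls and 40.8 on the high dose, a log2 difference of -0.72 with a 95% interval from -1.53 to 0.09 (adjusted p = 0.353). Its controls spread from 16 to 259, so the high-dose range of 12.9 to 67.0 lay almost wholly inside. Pik3c2g had medians of 251 and 154 and a log2 difference of -0.56, between -1.03 and -0.09 (adjusted p = 0.207). For Atp6ap1l the medians were 388 and 354 and the log2 difference was -0.38, between -0.79 and 0.02 (adjusted p = 0.322). Adamtsl2 had medians of 244 and 347 and a log2 difference of 0.30, between -0.07 and 0.67 (adjusted p = 0.396), with 7 of 12 high-dose libraries above the median control of their sex. Pvt1 had medians of 33.9 and 41.7 and a log2 difference of 0.35, between 0.06 and 0.63 (adjusted p = 0.195), with 10 of 12 above. The intervals do not exclude differences of the size seen at PND21 for any gene but Pvt1, whose upper bound of 0.63 lies below its PND21 value of 0.75. The 12-month value lay outside the 4-month interval for every gene, most narrowly for Pik3c2g, at -1.07 against a lower bound of -1.03. The PND21 and 12-month values chose the genes. Whether the difference changed with age was not tested, since each age had its own normalization.

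The low dose at 4 months called 0 of the 6 genes by limma, edgeR or DESeq2, with 0, 1 and 1 of them at an unadjusted p under 0.05. By limma 0% of all genes were called, and 906 of 15264 had such an unadjusted p. Log2 differences ran from -0.63 (SE 0.40) for Fgf7 to 0.35 (SE 0.30) for LOC108352946, and Adamtsl2, at -0.13 (SE 0.18), and Atp6ap1l, at 0.05 (SE 0.20), had the sign opposite to their high-dose value. These low-dose and high-dose values share their controls.

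Sex was a further comparison the choice had not used, in controls alone. By limma, none of the 6 genes was called different between female and male controls at any age, against a background over all genes of 0.073% at PND21, 0.524% in the 4-month table and 3.4% in the 12-month table. At an unadjusted p under 0.05 the counts were 0, 2 and 2 of the 6 by limma, edgeR and DESeq2 alike. Over all genes, 332 of 15073, 2889 of 15264 and 4561 of 14191 had such a p by limma, so these counts are not particular to the 6 genes. Pik3c2g came nearest. In 4-month controls the 5 females held between 87.8 and 251 normalized counts and the 6 males between 234 and 478, with medians of 149 and 330, so the ranges overlapped only at their ends. The female controls of 12 months held between 53.1 and 69.5 and the males between 68.6 and 206, again overlapping at the ends. Its log2 difference, female minus male, was -1.02 (SE 0.34, limma adjusted p = 0.0904) at 4 months and -0.95 (SE 0.38, adjusted p = 0.0775) at 12 months, and 0.10 (SE 0.37) at PND21. The call was made at 12 months by edgeR (adjusted p = 0.0362), by DESeq2 (adjusted p = 0.0203) and without control male replicate 3 (adjusted p = 0.0424), and at both ages where only the control groups entered the fit (adjusted p = 0.0333 and 0.0144).

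Of the other genes, Adamtsl2 was higher in female than in male controls at 4 months by 0.61 on the log2 scale (SE 0.26, adjusted p = 0.194), with medians of 386 and 221, and it was called where only the control groups entered the fit (adjusted p = 0.0421). Pvt1 was lower in female controls at 12 months by a log2 difference of -0.57 (SE 0.24, adjusted p = 0.0889), with medians of 13.4 and 18.9. LOC108352946 had medians of 4.29 in female and 9.15 in male controls at 12 months, a log2 difference of -0.82 (SE 0.53, adjusted p = 0.294).

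The high-dose effect was also compared between the sexes. Tested as an interaction in the same libraries, with the adjusted p alone, 0 of 6 genes were called by limma at each age, where the background over all genes was 0% at PND21 and 4 months and 14% at 12 months. The 12-month background of 1990 genes was 31 genes with the slope of expression on gene length as a covariate. At an unadjusted p under 0.05 the counts were 1, 0 and 0 of 6 by limma, and 1, 0 and 2 by edgeR and DESeq2. Over all genes, 468 of 15073, 765 of 15264 and 4577 of 14191 had such a p by limma. At PND21 that gene was Fgf7, whose high-dose difference was -1.92 (SE 0.35) in males and -0.77 (SE 0.35) in females, so the female value was higher by 1.15 (SE 0.50, adjusted p = 0.999). At 12 months LOC108352946 differed from control by 2.85 (SE 0.53) in males and 1.39 (SE 0.53) in females, a female-minus-male difference of -1.46 (SE 0.75, adjusted p = 0.176). DESeq2 called that difference (adjusted p = 0.0280) and so did the fit without high-dose male replicate 2 (adjusted p = 0.0417), while without the male at 499 it was -0.87 (adjusted p = 0.363). For the other genes at 12 months the female-minus-male difference ran from -0.67 for Adamtsl2 to 0.75 for Atp6ap1l, with adjusted p between 0.320 and 0.966.

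The 6 genes varied more between libraries of one group than most genes did. The standard deviation within groups, on the log2 scale, was 0.91 at PND21 and 0.96 at 12 months for LOC108352946, more than 98.7% and 98.8% of the genes tested. For Adamtsl2, the least variable at PND21, it was 0.34, more than 70.1% of genes, against a median of 0.23 over all genes. At 4 months Pvt1 was the least variable, at 0.33, and Fgf7 the most, at 1.01. LOC108352946 and Pvt1 averaged between 15.02 and 39.96 normalized counts.

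That spread allowed the genes to be compared across libraries with the group means removed, which takes out differences between groups in level but not in spread. Over 45 pairs of genes and ages, tested by permuting libraries within groups, 6 of 15 pairs passed an adjusted p of 0.05 at PND21, 4 at 4 months and 6 at 12 months. The share that would pass over pairs of other genes was not computed, so these counts cannot be called particular to the 6 genes. Atp6ap1l and LOC108352946 were the strongest pair: Pearson's r was -0.77 at PND21 (n = 36 libraries, Spearman's rho -0.80, permutation p = 1e-05, the smallest that 100000 permutations can give, adjusted p = 0.00045). Libraries with less Atp6ap1l than their group thus had more LOC108352946, and r was -0.78 without the 2 libraries farthest from the median. At 4 months r was -0.52 (rho -0.50, permutation p = 0.00605, adjusted p = 0.0242), and -0.48 without 2 libraries. At 12 months r was -0.67 (permutation p = 0.00296, adjusted p = 0.0149), but rho was -0.42 (permutation p = 0.0322, adjusted p = 0.0906) and r without 2 libraries was -0.35, so the 12-month relation rests on those libraries.

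**Figure D3:**
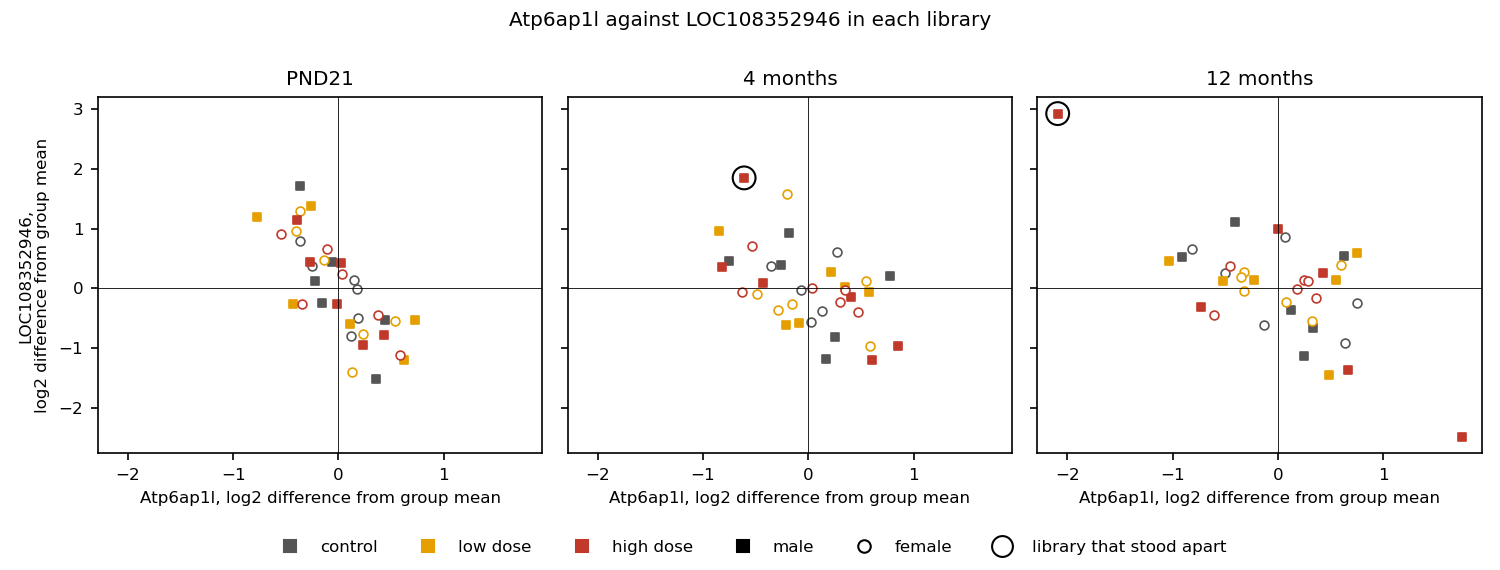
Atp6ap1l (x axis) against LOC108352946 (y axis) in each library, as the log2 difference from the mean of its group of sex and dose, at PND21, 4 months and 12 months. The points fall along a descending line at PND21 (r = -0.77), scatter more at 4 months (r = -0.52), and at 12 months (r = -0.67) the relation rests on 2 extreme high-dose males, one of them the circled library that stood apart.

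Adamtsl2 moved with the same pair. Its r with Atp6ap1l was -0.65 at PND21 (rho -0.64, permutation p = 0.00037, adjusted p = 0.00832) and -0.66 at 12 months (rho -0.50, permutation p = 0.00189, adjusted p = 0.0149), but -0.20 at 4 months, where it did not pass. Leaving out 2 libraries gave -0.59 and -0.50 at PND21 and 12 months. With LOC108352946, Adamtsl2 had r of 0.44 (adjusted p = 0.0492), 0.53 (adjusted p = 0.0149) and 0.68 (adjusted p = 0.0149) at the 3 ages by permutation, and rho of 0.41, 0.41 and 0.34, none of which passed. Pvt1 and LOC108352946 had r of 0.47 at PND21 (adjusted p = 0.0410) and 0.47 at 12 months (adjusted p = 0.0492) by permutation, and 0.32 at 4 months. Their rho of 0.43 at PND21 and 0.39 at 12 months did not pass. Fgf7 and LOC108352946 had r of -0.51 (adjusted p = 0.0202), -0.29 and -0.42 (adjusted p = 0.0492), and the 12-month rho of -0.39 did not pass.

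Another 4 relations passed at 1 age each by permutation. They were Atp6ap1l with Pvt1 at PND21 (r = -0.51, adjusted p = 0.0149), Fgf7 with Atp6ap1l at 4 months (r = 0.44, adjusted p = 0.0242), Pik3c2g with Atp6ap1l at 4 months (r = 0.52, adjusted p = 0.0149) and Adamtsl2 with Pvt1 at 12 months (r = 0.52, adjusted p = 0.0149). Pik3c2g was the gene least tied to the rest, with r between -0.37 and 0.36 for all its other pairs. Where a pair passed, its sign was that of the high-dose differences: genes that lay on the same side on the high dose went together between libraries of a group, and genes on opposite sides went apart.

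The libraries that stood apart carried part of these counts. Without the 12-month male, 1 of the 15 pairs passed at that age instead of 6, namely Adamtsl2 with Pvt1 (r = 0.50, permutation, adjusted p = 0.0318), while Atp6ap1l and LOC108352946 had r = -0.50 (adjusted p = 0.0571) and Adamtsl2 and LOC108352946 r = 0.46 (adjusted p = 0.0593). The other 12-month pairs had adjusted p between 0.0518 and 0.0924. Without the 4-month male, 3 pairs passed instead of 4, and Adamtsl2 with LOC108352946 had r = 0.41 (permutation, adjusted p = 0.0636). None of the 6 genes was correlated with depth, the mtDNA share or the slope of expression on gene length at an adjusted p under 0.05 over 54 relations. The extremes were both Adamtsl2 at PND21, with the length slope (r = -0.57, permutation p = 0.00573, adjusted p = 0.309) and the mtDNA share (r = 0.47, permutation p = 0.0378). LOC108352946 and depth at 12 months had rho of -0.48 (permutation p = 0.00479, adjusted p = 0.259). With group means removed, these values do not cover differences between doses. Median depth in controls and on the high dose was 40.1 and 53.0 M reads at PND21, and 40.1 and 32.7 M at 12 months.

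**Figure D4:**
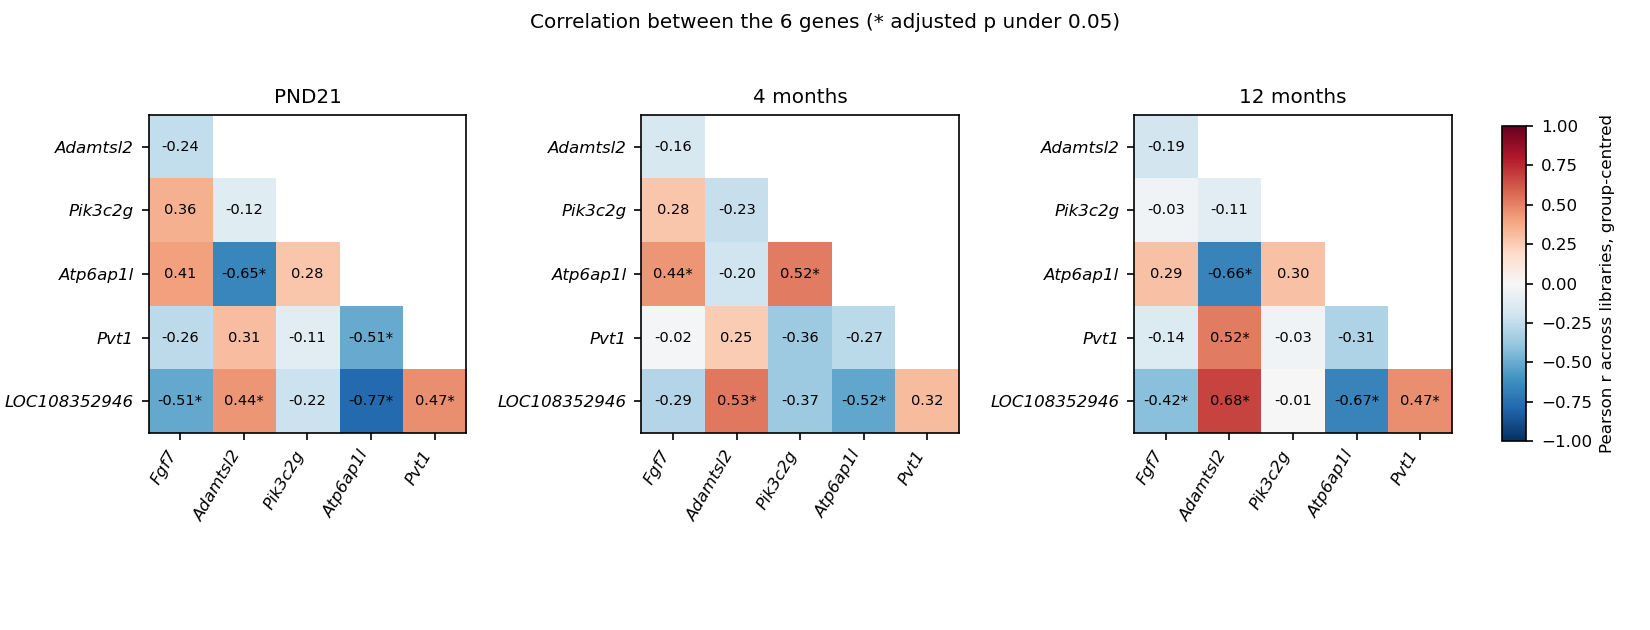
Pearson's r between each pair of the 6 genes across the libraries of an age (36, 35 and 36), after removal of the group means; an asterisk marks an adjusted p under 0.05 over 45 relations. The row of LOC108352946 holds r of -0.77, -0.52 and -0.67 with Atp6ap1l and of 0.44, 0.53 and 0.68 with Adamtsl2, and the values of Pik3c2g are mostly closer to 0.

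Markers of cardiac cell types were followed in the same way, since heart tissue holds several. Of 198 relations between the 6 genes and the mean of 11 marker lists, 17 passed: 9 at PND21, 3 at 4 months and 5 at 12 months. By Spearman's rho, 6, 3 and 3 passed. The share for other genes against these lists was not computed either. Adamtsl2 had r of 0.76 with the fibroblast markers (rho 0.60, permutation, adjusted p = 0.00297) and 0.75 with the macrophage markers (rho 0.67, adjusted p = 0.00297) at 12 months, and 0.61 and 0.56 without the male that stood apart. It went against the ventricular cardiomyocyte markers at that age (r = -0.65, permutation, adjusted p = 0.0296), but not without that male (r = -0.38, adjusted p = 0.155). At PND21 it went with the endothelial markers (r = 0.65, permutation, adjusted p = 0.0296, though rho was 0.43 with adjusted p = 0.115) and the smooth muscle and pericyte markers (r = 0.59, adjusted p = 0.00707). Without the 2 libraries farthest from the median of the list, r was 0.48 and 0.58. Low-dose female replicate 1, at 1492 normalized counts of Adamtsl2, had the highest mtDNA share of that age (44.6%), followed by low-dose male replicate 1 (38.4%). Atp6ap1l went against the smooth muscle markers at PND21 (r = -0.63, rho -0.68, permutation, adjusted p = 0.00198). It went with the red blood cell markers (r = 0.56, adjusted p = 0.0296, though rho was 0.49 with adjusted p = 0.0738). LOC108352946 went with the smooth muscle markers (r = 0.57, adjusted p = 0.00297).

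LOC108352946 also went at PND21 with the macrophage markers (r = 0.64, permutation, adjusted p = 0.00707) and against the red blood cell markers (r = -0.60, adjusted p = 0.0163). It went with the atrial cardiomyocyte markers as well (r = 0.56, adjusted p = 0.0188, though rho was 0.48 with adjusted p = 0.0691). Pvt1 went with the fibroblast markers at 12 months (r = 0.61, permutation, adjusted p = 0.00707) and with the macrophage (r = 0.59, adjusted p = 0.0139) and epicardial markers (r = 0.59, adjusted p = 0.0296) at 4 months. The epicardial rho was 0.53 (permutation, adjusted p = 0.0691). Without the 4-month male that stood apart, which had the highest Pvt1 and the highest epicardial sum of its age, the epicardial relation had r = 0.54 (permutation, adjusted p = 0.0660) and the macrophage relation r = 0.53 (adjusted p = 0.0335). At the same age LOC108352946 went against the adipocyte markers (r = -0.47, permutation, adjusted p = 0.0422), but not without that male (r = -0.39, adjusted p = 0.106). Only 2 of the 7 adipocyte genes entered there, Fabp4 and Lep, with medians of 26585 and 9.23 normalized counts. Adipoq had a median of 1.92, so this relation cannot be read as one with adipocytes. Fgf7 went against the macrophage markers at PND21 (r = -0.53, permutation, adjusted p = 0.0314). Pik3c2g went with the Schwann cell markers at 12 months (r = 0.54, permutation, adjusted p = 0.0314, though rho was 0.45 with adjusted p = 0.103).

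Summed marker levels are given by dose as a description, with no test of a list. The sum of the 8 atrial markers, which holds Nppa, had a median of 19361 normalized counts in controls (13204 to 43107) and 38865 on the high dose (21589 to 94320) at PND21, and of 8198 (5607 to 13566) and 16637 (8599 to 247326) at 12 months. Much of that sum was Nppa, whose median over the PND21 libraries was 16474. Gene by gene, the 7 atrial markers tested had a median log2 difference of -0.01 at PND21 and 0.04 at 12 months on the high dose. By limma 1 of the 7 was called at PND21 and 2 at 12 months, against 0.544% and 0.395% of all genes. At an unadjusted p under 0.05 there were 2 and 4 of the 7, against 3243 of 15073 and 2170 of 14191 genes. The sum thus differed by more than the median gene of the list did. The 8 fibroblast markers had medians of 318996 and 362551 at PND21 and of 40529 and 44261 at 12 months, with ranges that overlapped. The 7 smooth muscle and pericyte markers had medians of 24857 in controls and 34439 on the high dose at PND21, and of 11300 and 11260 at 12 months. Their median log2 difference, gene by gene, was -0.04 at PND21, so the higher sum was not shared by the median gene of the list. No marker list had all of its genes at 0, and 3 marker genes were called on the high dose by limma: Nppa at both PND21 and 12 months, and Myl4 (an atrial myosin light chain) and Myh7 (the slow myosin heavy chain) at 12 months. The part of cell composition in the differences of the 6 genes was not tested.

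**Figure D5:**
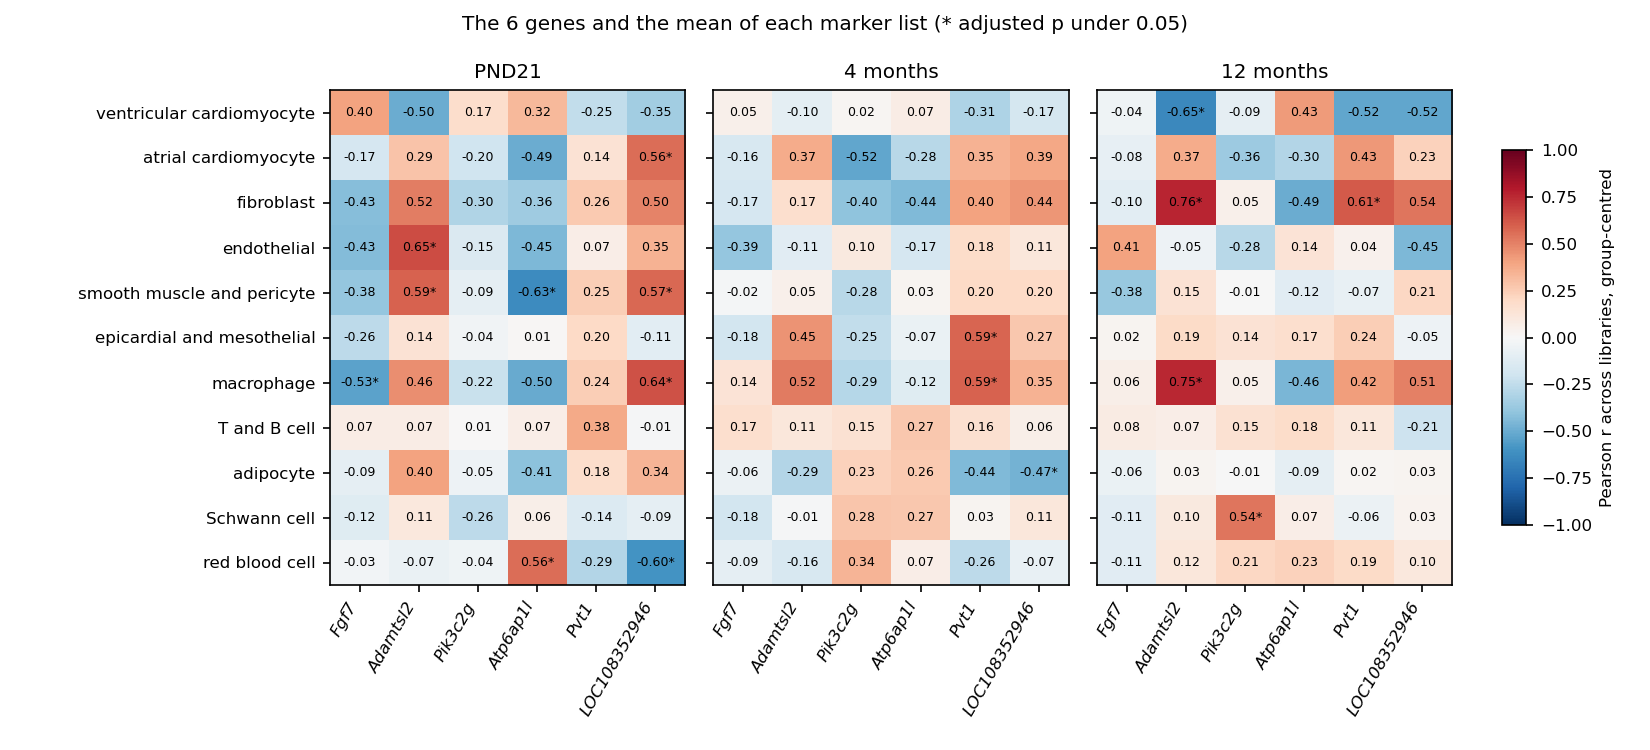
Pearson's r between each of the 6 genes and the mean of 11 lists of cell type markers across the libraries of an age, after removal of the group means; an asterisk marks an adjusted p under 0.05 over 198 relations. The 17 relations that passed include Adamtsl2 with fibroblast (0.76) and macrophage (0.75) markers at 12 months and Atp6ap1l with smooth muscle markers (-0.63) at PND21.

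Across all 13972 genes tested at the 3 ages, the genes whose within-group pattern was most like each of the 6 were found by the mean of Pearson's r over the ages (107 libraries in all), given as a description. For LOC108352946 they were Akip1 (mean r 0.75), Nppa (0.72) and Tsc22d1 (0.70), and Nppa, the atrial natriuretic peptide, had r of 0.83, 0.78 and 0.55 at the 3 ages. For Adamtsl2 they were Cmklr1, the chemerin receptor (0.75), Pmepa1, a TGF-beta target (0.75), and Islr (0.74). For Atp6ap1l they were Magix (0.72), Itga7, the laminin receptor of muscle (0.70), and LOC102555025 (0.70). Weaker likenesses were found for the other 3 genes. Fgf7 was most like Epha3, an ephrin receptor (0.64), Golm1 (0.55) and Rfc1 (0.54), Pik3c2g was most like Decr1, an enzyme of mitochondrial beta-oxidation (0.58), RGD1564827 (0.55) and LOC120100974 (0.54), and Pvt1 was most like Iqgap3 (0.53), Slc9a9 (0.52) and Arl4c (0.51).

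The nearest tested gene on each side of each gene in the RefSeq annotation gave 12 neighbours, and 0 of the 12 were called on the high dose at any age by limma, edgeR or DESeq2. At an unadjusted p under 0.05 there were 3, 3 and 1 by limma, 2, 2 and 1 by edgeR, and 3, 2 and 1 by DESeq2 at the 3 ages. Over all genes 0.544%, 0.0721% and 0.395% were called by limma and 3243 of 15073, 2611 of 15264 and 2170 of 14191 had such a p, so 0 of 12 is near the background. Myc, the tested gene before Pvt1, differed from control by 0.25 (SE 0.12), 0.24 (SE 0.12) and 0.24 (SE 0.15) on the log2 scale at the 3 ages (limma adjusted p = 0.207, 0.290 and 0.461). Tsc22d1, the tested gene before LOC108352946 with 8 others in between, differed by 0.49 (SE 0.13) at 12 months, which passed the adjusted p (0.0382) but not the fold change. Rps23, a ribosomal protein gene that overlaps Atp6ap1l, differed by 0.01 (SE 0.07), 0.07 (SE 0.05) and 0.07 (SE 0.07). Fam227b, which overlaps Fgf7, differed by -0.05 (SE 0.12), 0.11 (SE 0.13) and 0.02 (SE 0.16). Because the strand setting of the counting is not given in the sources used here, reads of such overlapping genes, and of LOC120102423 with Pik3c2g, LOC120093674 with Pvt1 and LOC102546462 with LOC108352946, cannot be told apart.

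The pathways around the 6 genes held no further call by limma. Over 5 lists together, 33 of 121 genes at PND21, 23 of 120 at 4 months and 23 of 116 at 12 months had an unadjusted p under 0.05, to be read against the 3243 of 15073, 2611 of 15264 and 2170 of 14191 over all genes. On the recovered reads nothing was called at PND21 and 4 months, and at 12 months edgeR called Ltbp2, a latent TGF-beta binding protein, and DESeq2 called Ltbp2 and Tgfb2, both in the ADAMTS and microfibril list. These 2 genes were named after their values were seen. In the FGF list of ligands, receptors and targets, 0 of 27 genes tested at PND21, 0 of 27 at 4 months and 0 of 24 at 12 months were called on the high dose, at medians of 0.00, 0.07 and 0.04 on the log2 scale against 0.00 over all genes at each age. Fgf10, another ligand of the Fgf7 receptor, differed by -0.32 (SE 0.16, limma adjusted p = 0.255) at PND21, and Fgfr2 by 0.14 (SE 0.29, adjusted p = 0.796). Flrt3, an FGF receptor partner, passed the adjusted p but not the fold change at PND21 (-0.53, SE 0.12, adjusted p = 0.0168) and at 12 months (-0.53, SE 0.14, adjusted p = 0.0418).

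Among the ADAMTS-like proteins and microfibril genes, 0 of 26, 26 and 25 were called, with medians of 0.20, 0.13 and 0.12 at the 3 ages. Fbn1, the fibrillin that Adamtsl2 binds, differed by 0.27 (SE 0.09, limma adjusted p = 0.0814) at PND21, and Ltbp2 by 0.91 (SE 0.33, adjusted p = 0.159) at 12 months. Adamts10 differed by 0.43 (SE 0.09, adjusted p = 0.0138) at PND21, which missed the fold change. None of 22 phosphoinositide 3-kinase genes, 20 V-ATPase genes and 26, 25 and 25 genes of the Myc network was called at any age, with medians between -0.05 and 0.03. Atp6ap1 itself differed by -0.09 (SE 0.06) at PND21 and 0.08 (SE 0.03) at 12 months, and Pik3c2a, the ubiquitous class II kinase, by -0.19 (SE 0.12) and -0.11 (SE 0.21).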

How the data were processed

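Per the labels, heart RNA of F1 offspring went into stranded mRNA libraries, and the submitters' processing notes name STAR 2.6, rn7 and DESeq2. Single-end reads and counting by Rsubread are stated in the study's methods, which describe tissue of the dams. The deposited values are a signal, read counts that the authors scaled by DESeq2 size factors (normalized counts), in 1 table per age. Whole reads were recovered from the step between values of each library (100% of values within 0.01 reads in all 107). The annotation release is not given in the sources used here.

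Genes with a mean of at least 10 entered the test, by limma 3.58.1 (R 4.3.3) with a trended eBayes prior and 1 mean for each group of sex and dose. Values entered as log2(normalized count + 1). Adding 1 understates the differences of low genes. A dose difference is the average of both sexes. A call needed a change of 1.5-fold or more and an adjusted p (Benjamini-Hochberg) below 0.05, or for the interaction that p alone. Correlations across libraries used log2 values minus group means, with two-sided p-values from 100000 permutations within groups. The fits were repeated with edgeR 4.0.16 or DESeq2 1.42.0 from recovered reads, a minimum mean of 50 or none, 10 as pseudocount, equal totals, fewer groups in the fit, covariates (depth, mtDNA share, slope on gene length), the replicate number as a block and leaving out libraries. On the recovered reads, edgeR called 86 genes on the high dose at PND21, 10 at 4 months and 75 at 12 months. Calculations were checked on simulated data.

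The 6 genes, the lists and the tests were chosen with earlier results of these data known. Further genes were named by rule: those called at both ages (the gene just outside the limit is not reported here), the 3 most alike to each of the 6, the nearest tested neighbours, and pathway genes called. Other pathway and marker genes were named for their role or after their values were seen. Names and promoters came from RefSeq (GRCr8), whose build differs from rn7.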

Additional observations from a re-analysis of the deposited data

Results flagged for a closer look

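Each of the 6 genes was looked at in the 18 groups of age, sex and dose, 108 groups of genes in all, for a library far from the others of its group on the log2 scale. Chance flags about 1 in 20 such groups, and 10 of 108 were flagged.

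Of these, 5 were Fgf7. At PND21 high-dose female replicate 1 held 51.1 normalized counts against at most 24.2 in the other females of its group, at 73 reads. At 4 months high-dose male replicate 1, one of the libraries that stood apart, held 12.9 against at least 36.9, at 12 reads. At 12 months control female replicate 2 was high, at 66.9 against at most 32.9. Low-dose male replicate 5 (2.52 against at least 11.04, 2 reads) and low-dose female replicate 5 (6.17 against at least 17.5, 7 reads) were low.

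For Adamtsl2, 3 libraries were high in their group: low-dose female replicate 1 at PND21 (1492 against at most 907), control male replicate 2 at 4 months (331 against at most 229) and high-dose female replicate 2 at 12 months (351 against at most 200.2). For LOC108352946, high-dose female replicate 2 at 4 months was high (29.7 against at most 17.9) and low-dose male replicate 1 at 12 months was low (4.16 against at least 14.4, 5 reads). The 12-month male at 499 normalized counts of LOC108352946 was not flagged, because the other males of its group were spread as well.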

How the results depend on the processing

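The high-dose calls at PND21 and 12 months chose the 6 genes, so their counts under other settings describe the choice and support nothing. At PND21, 3 of the 6 were called with depth or the length slope as a covariate, and 3 of the 3 tested at a minimum mean of 50 (also 3 at 12 months). Leaving out each library in turn gave between 3 and 6 genes at PND21, the lowest without high-dose female replicate 2, and between 4 and 6 at 12 months. Pik3c2g, Pvt1 and Adamtsl2 were those lost. The cause was not tested. At 4 months 0 of the 6 were called under any alternative. Over all genes, the high-dose count of 82 at PND21 ran from 30 (minimum mean 50) to 442 (adjusted p alone), that of 11 at 4 months from 0 (mtDNA share, or without high-dose male replicate 1) to 41, and that of 56 at 12 months from 22 (only the groups compared) to 207. The interaction count of 1990 at 12 months fell to 31 with the length slope. The sex counts of 80 and 482 ran from 25 to 350 and from 153 to 2321 at 4 and 12 months.

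The sex difference in controls called 2 of the 6 at 4 months with only the control groups in the fit, and 1 at 12 months by edgeR, DESeq2, the control groups alone and without control male replicate 3 (range 0 to 1). DESeq2 called 1 for the interaction at 12 months (leave-one-out range 0 to 1). Small values changed sign. At 4 months the low-dose difference of Pik3c2g became 0.047 with the mtDNA share as a covariate. Leaving out single libraries gave between -0.024 and 0.14 for the 4-month low-dose difference of Atp6ap1l and between -0.26 and 0.044 for its sex difference. The interaction at 12 months became -0.052 (pseudocount 10), -0.014 (edgeR), -0.013 (DESeq2) and -0.015 (mtDNA share) for Pvt1, with values between -0.11 and 0.13 on leaving out single libraries, and -0.078 and -0.077 for Fgf7 with the mtDNA share and the length slope.

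Replicate numbers were not used as pairs in the main fit. Same-numbered libraries deviated together with a median correlation of 0.06, 0.03 and 0.01 at the 3 ages, against -0.0045, -0.0039 and -0.0041 for other numbers. The same-numbered values lay between -0.33 and 0.77, -0.19 and 0.36, and -0.35 and 0.39, and over 0.1 in 35 of 90, 20 of 85 and 19 of 90 pairs. Some structure shared by number is therefore not excluded. With the replicate number as a block, 0 of the 6 genes were called at 4 months, the marker relations that passed became 15 at PND21 and 8 at 12 months, and the pairs 7, 3 and 4. Equal totals gave 5 marker relations at 4 months. Leaving out the libraries that stood apart, chosen after seeing the data, gave 1 pair (from 6) and 4 marker relations at 12 months, and 3 pairs and 1 marker relation (from 3) at 4 months. Depth limits LOC108352946 most, at a median of 10.5, 16 and 9.5 reads per library at the 3 ages.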
